A study of Mus musculus with 12 samples.

Results

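The genes described here encode the proteins of the cytosolic ribosome, and their RNA was measured by RNA sequencing in the left atrium (LA) of adult mice. They were chosen by symbol: those of the forms Rpl or Rps followed by a number, with or without the endings a, l, x or l1, together with the P stalk genes Rplp0, Rplp1 and Rplp2. This rule matched 84 of the 54658 gene names counted, and the 70 of them above 1 CPM (read counts scaled to a common library size) in at least 6 of the 12 libraries are the members. A total of 13541 genes passed the same filter and were tested. The members comprised 38 genes of the large (60S) subunit, the 3 P stalk genes, 24 genes of the small (40S) subunit and 5 paralogs, which are second copies of a ribosomal protein gene with their own sequence.

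The LA of 6 iNICD mice was compared with that of 6 littermates serving as controls, 7 females and 5 males in all, aged 2 to 3 months. The iNICD mice carried αMHC-rtTA together with tetO_NICD, so that doxycycline switched on the Notch intracellular domain (NICD) in cells with αMHC promoter activity, which in the heart are cardiomyocytes (CMs). Controls carried αMHC-rtTA without tetO_NICD, and all 12 mice received doxycycline chow for 3 weeks with no washout, on a mixed genetic background. Whole LA tissue was used, so fewer CMs and less RNA per CM cannot be told apart. The controls were 4 females and 2 males, and the iNICD group 3 females and 3 males. Replicates are numbered as in the sample titles, and in the column names of the count table controls 4 and 5 carry each other's number.

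Each library held between 21432632 and 27182038 counts on genes. Notch1, whose intracellular part the transgene encodes, lay between 108 and 131 normalized CPM in the controls and between 2975 and 4077 in the iNICD libraries, as the labels of all 12 say. Normalized CPM are CPM after scaling of the library sizes by the trimmed mean of M values (TMM). All 4 atrial markers fell in iNICD LA, from a summed 34235 to 44024 normalized CPM in controls to 9269 to 16601. Among 8 cardiomyocyte markers Tnnt2 fell and the others did not pass, with sums of 63275 to 80204 against 57486 to 67548. The 3 ventricular markers summed to no more than 4.51, with Irx4 at 0. None of the 5 erythroid markers passed, but their log2 fold changes had a median of -1.30, with sums of 59.4 to 247 in controls and 27.1 to 138 in iNICD LA. In the other lists no marker passed, with 6 of 6 endothelial markers below 0 (median -0.14), 6 of 6 epicardial and mesothelial markers below 0 (median -0.30), 7 of 8 fibroblast markers above 0 (median 0.12) and 8 of 8 macrophage and leukocyte markers above 0 (median 0.12). Of the smooth muscle and pericyte markers 4 of 6 were below 0 (median -0.18). Of the Schwann and adipocyte markers 3 and 2 were tested, with 0 below 0 (medians 0.14 and 0.093), and the 1 lymphocyte marker tested was at -0.45. Over all genes tested 51.3% were below 0. The part of these cell type markers in the values below was not tested.

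A ribosome joins a large subunit, which forms peptide bonds, to a small subunit, which reads the mRNA. Each subunit needs 1 copy of nearly every one of its proteins, and the flexible P stalk of the large subunit recruits the elongation factors. Ribosomal protein mRNAs begin with a pyrimidine-rich tract that couples their translation to mTORC1 signalling, and a growing CM raises ribosome output. Mammalian genomes also hold a great many retrotransposed copies of these mRNAs, most of them pseudogenes.

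No member rose or fell in iNICD LA by edgeR's quasi-likelihood test after Benjamini-Hochberg adjustment over all 13541 genes. In the same test 2.78% of all genes rose and 1.34% fell. At an unadjusted p under 0.05, 0 members were higher and 17 were lower, which is 24.3% of the members against 8.09% of all genes on the lower side and 9.32% on the higher side. DESeq2, on the same counts, called 6 members lower, Rpl10, Rpl12, Rpl8, Rplp0, Rps15 and Rps3, and none higher. That is 8.57% of the members, where DESeq2 called 3.28% of all genes lower. edgeR's exact test called no member, where it called 2.06% of all genes lower. The log2 fold change of iNICD over control was below 0 for 60 of the 70 members, or 85.7%, against 51.3% of all genes. Its median over the members was -0.14, and over all genes tested -0.0061. The 6 iNICD libraries all lay below the 6 controls for 4 members, Rpl12, Rpl7l1, Rplp0 and Rps3, or 5.71% against 1.25% of all genes. No member had the groups apart in the other direction, where 2.58% of all genes did. The members share libraries, so these counts are not independent of each other.

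**Figure D1:**
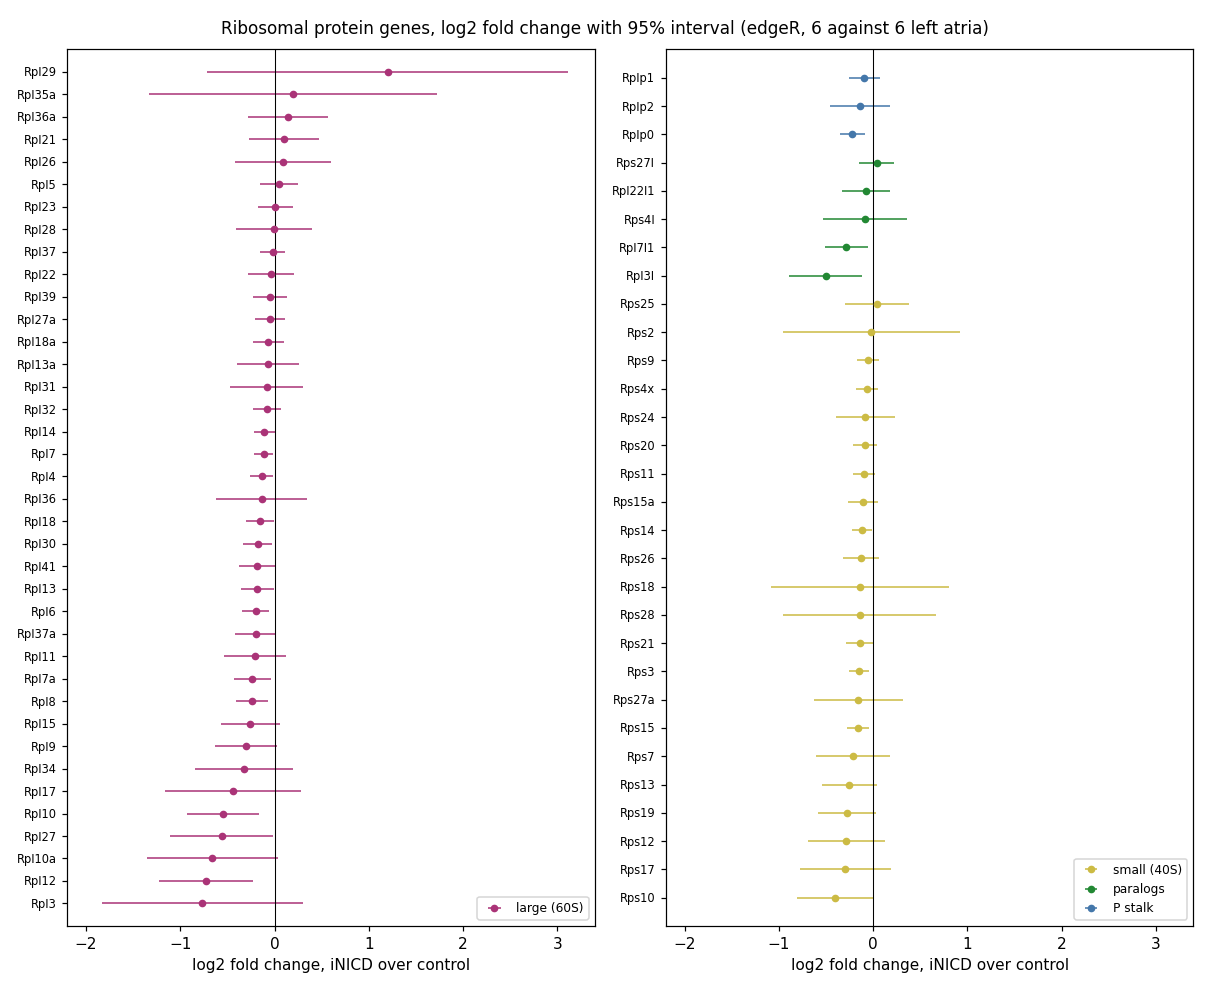
Log2 fold change of iNICD over control for 68 of the 70 members (points) with its 95% interval from edgeR (lines), the 60S genes on the left and the P stalk, paralog and 40S genes on the right. Most points lie left of the line at 0, 59 of the 68 shown, and the widest intervals shown belong to Rpl29 and Rpl35a.

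One library weighed on these counts. Control replicate 5, a male, had a TMM factor of 0.863 where the other 11 lay between 0.973 and 1.06, and 65 of its 70 members were above their own mean over the libraries. Its mean member level was 0.39 log2 units above that mean, and the other 11 libraries lay between -0.23 and 0.12. These levels include the TMM factor. Without it this library did not stand out: 0.365% of its counts fell on members, where the median control had 0.376%. It was the highest control for 51 of the 70 members, where it was the highest control for 32.6% of all genes tested. Without it, 53 members rather than 60 had a log2 fold change below 0, the median over the members was -0.088 against -0.00042 over all genes, 14 were lower at an unadjusted p under 0.05, and 1 member, Rpl12, passed, which is 1.43% against 2.25% of all genes called lower there. Without iNICD replicate 1, whose mean member level was the lowest at -0.23, 9 members rather than 17 were lower at an unadjusted p under 0.05. The share of all genes at that p is not given for the fits without a library, so the 14 and the 9 cannot be set against it.

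**Figure D2:**
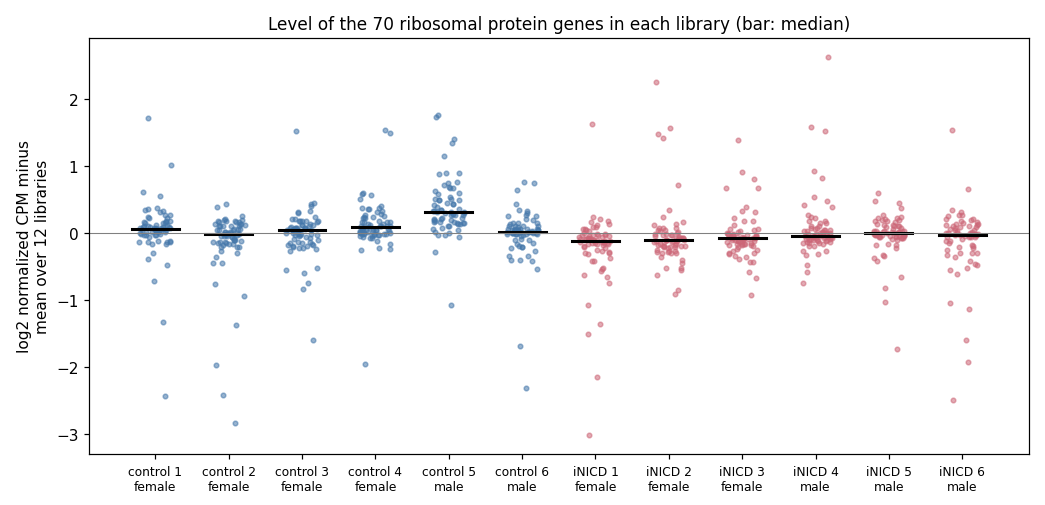
Log2 normalized CPM of the 70 members minus each member's own mean over the 12 libraries, by library, with the median as a bar; controls are blue and iNICD libraries red, with sex below the name. The control medians run from -0.015 to 0.31, the highest in control replicate 5, and the iNICD medians from -0.11 to 0.0041.

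A measure that uses no TMM factor is the share of all gene counts that fell on members. It was 0.359% at the lowest, 0.376% at the median and 0.387% at the highest in controls, and 0.335%, 0.346% and 0.359% in iNICD LA. The groups thus met at 0.359%, the lowest control standing just above the highest iNICD library. RNA of the mitochondrial genome took 7.52% to 9.59% of the counts in controls and 9.60% to 11.2% in iNICD LA. With those counts left out of the total, the members' share was 0.388% to 0.422% in controls and 0.375% to 0.400% in iNICD LA, and the groups overlapped. No test was made of the shares, which are sums over the members, and the part of mitochondrial RNA in them was not tested.

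Rplp0 of the P stalk came closest to a call. It anchors the stalk to the ribosome, and its mRNA, a common reference in qPCR, was at 222, 240 and 280 normalized CPM (lowest, median and highest) in controls and at 201, 205 and 220 in iNICD LA. The groups did not overlap, and its log2 fold change was -0.22 (SE 0.063, adjusted p = 0.0749 by edgeR). That is the smallest adjusted p of any member. Rplp1, an acidic protein of the stalk, was at 187, 207 and 249 in controls and 179, 197 and 221 in iNICD LA, with wide overlap and a log2 fold change of -0.093 (SE 0.077). Rplp2, its partner, was at 41.6, 61.2 and 68.1 against 41.7, 50.9 and 62.9 (log2 fold change -0.14, SE 0.15). Their adjusted p were 0.569 and 0.667 by edgeR. Without control replicate 5 the values were -0.039 and -0.084, and that of Rplp2 was -0.21 without control replicate 1 and -0.080 without iNICD replicate 1.

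In the large subunit 31 of 38 members had a log2 fold change below 0, with a median of -0.14, and 11 were lower at an unadjusted p under 0.05. Over all genes tested these shares were 51.3% and 8.09%. Rpl12, a protein at the base of the P stalk, was at 4.26, 5.50 and 12.03 normalized CPM in controls and 3.25, 3.91 and 4.13 in iNICD LA. Control replicate 5 was the library at 12.03, and every iNICD library was still below every other control. The log2 fold change was -0.73 (SE 0.23, adjusted p = 0.108), and without that control -0.44 (adjusted p = 0.0487). Only 50.6% of its transcript is distinct from other genes at the read length, and it overlaps Lrsam1 on the other strand.

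Rpl10, which completes the large subunit late in its assembly, was at 6.91, 9.41 and 13.2 in controls and 5.28, 6.47 and 8.02 in iNICD LA. Its groups overlapped, although all 6 iNICD libraries were below the control median (log2 fold change -0.55, SE 0.18, adjusted p = 0.113). Rpl8, one of the proteins nearest the peptidyl transferase centre, was far more abundant, at 341, 370 and 432 against 280, 312 and 360 (log2 fold change -0.24, SE 0.077, adjusted p = 0.120). Rpl4, another abundant large subunit protein, was at 447, 474 and 533 in controls and 419, 434 and 466 in iNICD LA (log2 fold change -0.13, SE 0.056, adjusted p = 0.232). For each of Rpl8 and Rpl4 only 1 other gene shares any 50-base stretch, and 92.1% and 83.5% of the stretches are found in no other gene.

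Rpl5 and Rpl11, which with 5S rRNA can bind Mdm2 and so link ribosome assembly to p53, both missed the threshold. Rpl5 was at 12.7, 14.9 and 15.2 normalized CPM in controls and 12.7, 15.1 and 17.7 in iNICD LA (log2 fold change 0.046, SE 0.093). Rpl11 was at 1.61, 1.94 and 2.48 against 1.46, 1.76 and 1.94 (log2 fold change -0.21, SE 0.15). Both had overlapping groups. Without control replicate 5 the value of Rpl11 was -0.14, and that of Rpl5 ran from -0.0078 to 0.089 over single left-out libraries. Rpl10a and Rpl27 are among the 5 lowest log2 fold changes, at -0.66 (SE 0.32) and -0.56 (SE 0.25). Both rested in part on control replicate 5, at 25.3 and 3.28 normalized CPM against at most 8.53 and 1.90 in the other controls, and without it they were at -0.16 and -0.33.

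In the small subunit 22 of 24 members had a log2 fold change below 0, with a median of -0.13, and 3 were lower at an unadjusted p under 0.05. Over all genes tested these shares were 51.3% and 8.09%. Rps3, at the entry of the mRNA channel, was at 307, 320 and 346 normalized CPM in controls and 279, 291 and 305 in iNICD LA. The groups did not overlap, but by a narrow gap, and the log2 fold change was -0.14 (SE 0.049, adjusted p = 0.137). It was among the 3 members that varied least between controls, with an SD of 0.061 log2 units. Rps15, a protein of the small subunit head named here after its values were seen, was at 131, 140 and 152 against 120, 129 and 132 (log2 fold change -0.16, SE 0.052, adjusted p = 0.121).

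Rps4x, the X-linked gene, was at 54.2, 55.5 and 59.8 in controls and 51.2, 54.2 and 59.2 in iNICD LA, and the 95% interval of its log2 fold change ran from -0.18 to 0.057. Rps19, the gene most often mutated in Diamond-Blackfan anaemia, was at 36.5, 39.3 and 45.0 in controls and 18.9, 35.1 and 38.5 in iNICD LA. A single iNICD library lay at 18.9, and the log2 fold change was -0.28 (SE 0.14), or -0.16 without iNICD replicate 2. Rps27a, which is made as a fusion with ubiquitin, was at 1.16, 2.00 and 2.62 against 1.31, 1.60 and 2.38 (log2 fold change -0.16, SE 0.22), and the value ran from -0.27 to -0.044 over single left-out libraries.

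Of the 5 paralogs 4 had a log2 fold change below 0, against 51.3% of all genes. Rpl3l, which replaces Rpl3 in ribosomes of heart and skeletal muscle, was at 13.4, 17.5 and 22.8 normalized CPM in controls and 8.90, 11.9 and 17.1 in iNICD LA. The groups overlapped, with a log2 fold change of -0.50 (SE 0.18, adjusted p = 0.160), and no 50-base stretch of Rpl3l is found in another gene. Without control replicate 5 the value was -0.52. It was -0.86 in females alone and -0.19 in males alone, and this difference did not pass (interaction 0.68, unadjusted p = 0.0501 and adjusted p = 0.916 by edgeR). Rpl7l1, a paralog of Rpl7 with a role in early large subunit assembly, was at 42.0, 45.8 and 61.4 against 29.9, 40.9 and 41.6. The groups stood apart by a narrow gap (log2 fold change -0.28, SE 0.11, adjusted p = 0.175).

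The ratio of each paralog to its parent gene needs no scaling between libraries, and 5 pairs were compared by a two-sided exact permutation test of the log2 ratio. None differed between the groups. The log2 ratio of Rpl3l to Rpl3 was on average 0.86 ± 0.63 (SD, n = 6) in controls and 1.23 ± 1.17 (SD, n = 6) in iNICD LA (exact p = 0.513, adjusted over the pairs 0.825). That of Rpl7l1 to Rpl7 was -1.30 ± 0.14 and -1.46 ± 0.21 (exact p = 0.115, adjusted 0.574). Rpl22l1 against Rpl22, Rps27l against Rps27 and Rps4l against Rps4x differed by -0.053, -0.083 and -0.063. Rps4l is annotated as a transcribed processed pseudogene, and Rps27 itself did not pass the expression filter. These ratios are of counts. At the read length 14.4% of the Rpl3 transcript is distinct from other genes, against 100% for Rpl3l. Per kilobase of that distinct part the controls averaged 59.9 normalized CPM for Rpl3 and 13.7 for Rpl3l, the reverse order. The ratio thus does not settle which of Rpl3 and Rpl3l is more abundant. The highest library of Rpl3 was 5.83 times the lowest, so a change in the balance of this pair could be missed.

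Levels differed far more between members than between groups. Per kilobase of gene length, the mean over controls ran from 0.559 normalized CPM for Rpl21 to 420 for Rplp1, a 752-fold range, with a median of 9.26. After Rplp1 came Rpl8 at 276 and Rpl4 at 239, and next to Rpl21 stood Rpl11 at 0.739 and Rps7 at 0.751. Part of a transcript can be told from the rest of the transcriptome, and levels per length were compared with the size of that part. For each member the main transcript was divided into all its windows of 50 bases, the read length, and the share of windows found in no other annotated gene was computed from GENCODE M21. That share ran from 6.16% for Rpl5 to 100% for Rpl3l, with a median of 43.5%, and it was under 50% for 42 of the 70 members.

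Among the 21 members with under 25% of windows unique, the median level per kilobase was 3.19 normalized CPM. It was 5.98 among the 21 members from 25% to 50%, 23.2 among the 16 from 50% to 75% and 18.4 among the 12 at 75% or more. Spearman's rho between the unique share and the level per kilobase was 0.62 across the 70 genes, a description over genes that share the same libraries. Per kilobase of unique windows no such trend was seen, with medians of 87.5, 76.7, 132 and 59.9 normalized CPM in the same 4 classes and a rho of 0.12. That scale divides by the unique length itself, which lowers a correlation with the unique share by construction. It also takes transcript length in place of gene length, and the cause of the trend was not tested. On that scale the members ran from 5.02 for Rpl21 to 1165 for Rplp1, a 232-fold range, and Rps15 at 517 and Rpl8 at 507 came next to Rplp1. Levels of members with a low share are uncertain, since the counting could split their reads over other genes or leave them out. Rplp1 had the highest level with 40% of windows unique.

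**Figure D3:**
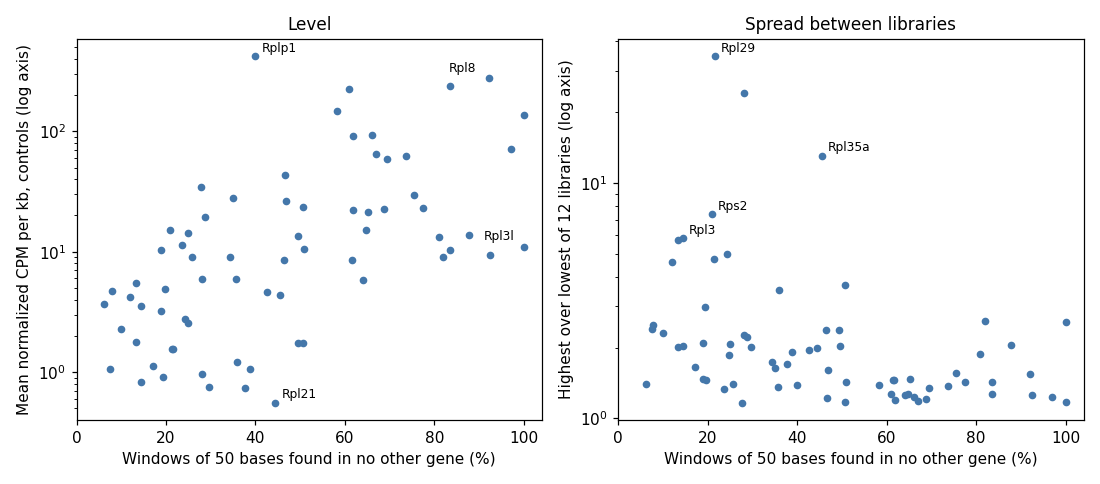
Mean normalized CPM per kilobase over the 6 controls (left, log axis) and the highest over the lowest of the 12 libraries (right, log axis) against the percentage of 50-base windows found in no other gene, 1 point per member. Members with few unique windows have lower levels per kilobase of gene length, and all 9 members that vary at least 4-fold between libraries have under 50% of windows unique.

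From the least to the most unique of the 4 classes, 18 of 21, 16 of 21, 15 of 16 and 11 of 12 members had a log2 fold change below 0. Over all genes tested this was 51.3%. The part of shared sequence in the lower values was not tested. Of the 17 members lower at an unadjusted p under 0.05, 9 had at least 50% of windows unique, out of 28 such members. The median log2 fold change was -0.24, -0.12, -0.11 and -0.086 from the least to the most unique of the 4 classes, and the median SE was 0.19, 0.15, 0.069 and 0.084. The fold changes and their errors were smaller in both classes at 50% or more than in both classes below. Adding to each member the counts of every gene name that shares at least 10% of its windows, an alternative chosen after the data were seen, left 0 members past the threshold and a median of -0.13.

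The 14 names that matched the rule but stayed under the filter include genes every ribosome needs. Rps23 was nearest to it, above 1 CPM in 4 libraries, with 0.849 to 1.45 normalized CPM in controls and 0.627 to 0.934 in iNICD LA. Rps6, the S6 kinase substrate of the small subunit, was at 0.207 to 0.672 and 0.0812 to 0.417, with 15.4% of its windows unique. Rps27 was at 0.332 to 0.869 and 0.485 to 0.780, with 1.35% unique. The others were Rpl19, Rpl23a, Rpl24, Rpl38, Rps16 and Rps29, the paralogs Rpl10l and Rpl39l, and Rpl32l, Rpl6l and Rps12l1, which are annotated as processed pseudogenes. The unique share was low for Rpl19, Rpl23a and Rpl24, at 20.7%, 14.3% and 18.3%. It was 48.3% for Rps23, 44.6% for Rpl38, 58.4% for Rps16 and 64.2% for Rps29, above the members' median of 43.5%. Rpl10l, a testis gene, had 0 counts in all libraries, where 3 counts would be 0.110 to 0.140 CPM. On the other side of the filter stood Rpl17, at 0.538 to 2.53 in controls and 0.529 to 1.20 in iNICD LA.

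Members also differed in how steady they were from mouse to mouse. The highest of the 12 libraries was within 1.5 times the lowest for 30 members, 42.9% against 33.1% of all genes tested, and it was at least 4 times the lowest for 9, 12.9% against 11.2%. Among them were Rpl29, Rpl35a, Rps2, Rpl3, Rps18, Rps28, Rpl17 and Rpl10a. In Rpl17 and Rpl10a the spread came largely from control replicate 5. In most of the others the libraries fell on separate levels in both groups.

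Rpl35a, of the large subunit, was at 4.43, 14.9, 32.1, 32.3, 5.29 and 3.47 normalized CPM in control replicates 1 to 6. In iNICD replicates 1 to 6 it was at 2.52, 33.0, 17.6, 31.998, 3.34 and 17.6. The libraries thus stood on 3 levels, each found in both groups, and the log2 fold change was 0.19 (SE 0.71, adjusted p = 0.916). Rpl29 had the highest log2 fold change of all members at 1.20 (SE 0.89, adjusted p = 0.516), and -0.013 with the counts of its copies added. It was at 4.51 and 4.68 in control replicates 1 and 5 and at 0.258 to 0.455 in the other controls. In iNICD LA it ran from 0.246 to 8.52, so its groups overlapped over the whole control range.

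Rpl3 was at 14.7, 5.31, 4.30, 20.3, 11.7 and 11.3 in controls. In iNICD LA it was at 4.67, 19.3, 4.53, 4.32, 3.55 and 3.49. Its log2 fold change of -0.77, the lowest of any member, had an SE of 0.49 and an adjusted p of 0.453. It was at -1.45 with an adjusted p of 0.0485 by edgeR without iNICD replicate 2, the library at 19.3, where 0.967% of all genes were called lower, and at -0.51 without control replicate 4, the library at 20.3. Rpl34, named here after its values were seen, was at 56.3 and 51.7 in control replicates 5 and 6 and at 44.1 in iNICD replicate 4, and between 23.8 and 27.9 in the other 9 libraries. All 3 high libraries were from males, and the other 2 males were at 26.7 and 24.8.

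For some members a copy elsewhere in the genome was high in libraries where the gene itself was low. The copies below were taken from gene names that share at least 10% of a member's windows and vary at least 4-fold between libraries with 2 normalized CPM or more in 1 of them. This gave 7 copies, and the 4 printed here were singled out after their values were seen. Each line gives 60 bases of coding sequence from GRCm38, 5′ to 3′ on the gene's own strand, with capitals at the bases that differ between member and copy. They are shown because they hold positions at which a 50-base read could be assigned to one or the other. The copies share 13.4% to 60.6% of the windows of the whole transcript.
Rps18, chr17:33952233-33952292, minus strand: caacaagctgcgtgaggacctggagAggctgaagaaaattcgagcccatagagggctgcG
Gm10260, chr13:97760218-97760277, minus strand: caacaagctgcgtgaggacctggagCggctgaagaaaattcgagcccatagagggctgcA
Rps28, chr17:33823255-33823314, minus strand: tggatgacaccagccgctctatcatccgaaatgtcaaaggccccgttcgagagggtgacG
Gm10263, chr13:73317957-73318016, plus strand: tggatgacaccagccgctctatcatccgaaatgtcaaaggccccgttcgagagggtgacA
Rpl26, chr11:68903179-68903238, plus strand: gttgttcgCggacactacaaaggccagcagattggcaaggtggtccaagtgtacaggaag
Gm15772, chr5:3236599-3236658, plus strand: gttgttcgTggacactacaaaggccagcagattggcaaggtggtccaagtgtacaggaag
Rps24, chr14:24493424-24493483, plus strand: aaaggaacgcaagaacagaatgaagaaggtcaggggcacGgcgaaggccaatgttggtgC
Rps24-ps3, chrX:79195367-79195426, plus strand: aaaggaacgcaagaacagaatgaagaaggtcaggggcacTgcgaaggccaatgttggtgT

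Over the whole coding sequence, Rps18 and Gm10260 differ at 4 of 456 bases, with an identical run of 185 bases. Rps28 and Gm10263 differ at 1 of 207, Rpl26 and Gm15772 at 2 of 435, and Rps24 and Rps24-ps3 at 4 of 399. Gm10260 is annotated as protein coding and the other 3 copies as processed pseudogenes. Rps18, the small subunit protein at the top of the head, was at 4.28, 4.31 and 3.65 normalized CPM in control replicate 2 and iNICD replicates 1 and 6. In these same libraries Gm10260 was at 38.7, 31.8 and 39.3. In iNICD replicates 3 and 4 Rps18 was at 19.4 and 20.9, and Gm10260 at 0.0730 and 0.417. In the other 7 libraries Rps18 was at 12.2 to 20.5, the highest in control replicate 5, and Gm10260 at 18.2 to 22.7.

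Rps28, a small protein of the 40S subunit, was lowest in the same 3 libraries. It was at 2.10, 1.42 and 1.85 where Rps18 was lowest, with Gm10263 at 7.08, 5.89 and 6.44, and at 6.46 and 7.12 in iNICD replicates 3 and 4, with Gm10263 at 0.0365 and 0.0757. Rps18 and Rps28 lie close together on chromosome 17, at 33951999-33956001 and 33819027-33824562, and both copies lie on chromosome 13. Rps18 overlaps Vps52 and Rps28 overlaps Kank3 on the other strand.

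Rpl26, a large subunit protein, was at 16.8, 16.2 and 15.7 in control replicates 1 and 2 and iNICD replicate 5, where Gm15772 was at 11.3, 10.04 and 10.99. In the other 9 libraries Rpl26 was at 29.9 to 34.7 and Gm15772 at no more than 0.341. Rps24, a small subunit protein, was lowest at 57.7 and 55.6 in control replicate 1 and iNICD replicate 6, where Rps24-ps3 was at 27.6 and 25.8. Apart from control replicate 5 it was highest at 102 in iNICD replicate 2, where Rps24-ps3 was at 0.661. Of the other copies, Gm8420 shares 10.4% of the windows of Rpl15 and ran the other way. It was at no more than 0.0468 in control replicates 1 and 5 and iNICD replicates 1, 2 and 6, where Rpl15 was at 28.7, 37.5, 24.0, 20.8 and 26.1, and Rpl15 was at 33.3 to 38.6 in the other libraries. Rps2-ps13 was at 5.24 and 4.76 in control replicate 2 and iNICD replicate 6, where Rps2 was lowest at 6.01 and 6.24. It was as high, at 4.84, 6.28 and 5.73, in control replicates 1 and 4 and iNICD replicate 5, where Rps2 was at 27.5, 30.5 and 23.7.

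The sum of gene and copy varied less than the gene alone for the 4 pairs printed. Its highest over lowest library was 2.22 for Rps18, 1.41 for Rps28, 1.33 for Rpl26 and 1.49 for Rps24, against 5.73, 5.01, 2.21 and 1.89 for the gene alone. These pairs were chosen with their values seen, which favours a steadier sum, so the sums are a description only. No sum is given for Rpl15 with Gm8420 or for Rps2 with Rps2-ps13. The cause of the levels was not tested. The high levels of the 4 copies were found in both groups. The near-0 levels of Gm10260, Gm10263 and Rps24-ps3 were found in iNICD libraries alone, where the lowest control was at 18.2, 2.44 and 13.3.

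**Figure D4:**
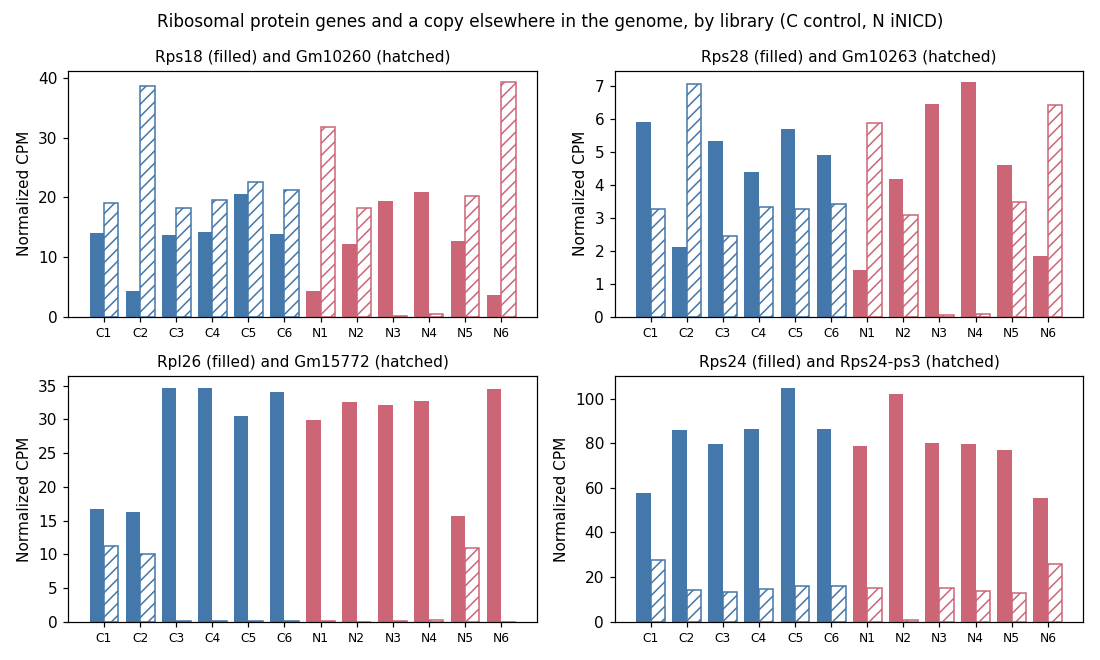
Normalized CPM of 4 members (filled bars) and of a near-identical copy elsewhere in the genome (hatched bars) in each of the 12 libraries, controls (C) blue and iNICD (N) red. Where the copy is high the gene is low, as for Rps18 in C2, N1 and N6, and where the copy is near 0 the gene is high, as in N3 and N4.

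For Rps7 the copy was higher than the gene in every library but iNICD replicate 2, where Rps7 was at 1.23 normalized CPM and the copy at 0.750. Rps7, of the small subunit, was at 1.19 to 2.20 normalized CPM in controls and 1.09 to 1.67 in iNICD LA. Gm6472, a transcribed processed pseudogene on chromosome X that differs from the Rps7 coding sequence at 3 of 582 bases, was at 12.4 to 25.6 in controls and 0.750 to 22.3 in iNICD LA. The sum of both varied more than the gene, 14.03-fold against 2.01-fold between the highest and the lowest library. Among the 437 gene names that share at least 10% of the windows of a member, 16 reached 2 normalized CPM in any library.

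Starts of 51 members were found among RefSeq promoters (GRCm38.p6), as 62 entries of 300 bases. The ribosomal protein tract, a C followed by at least 4 bases that are C or T, lay within 15 bases of an annotated start in 33 of the 51 members (64.7%). The same held for 43.7% of the 10310 tested genes with an entry. The lines below give 15 bases before and 15 from the start, with the longest such tract in capitals, for members with a long tract and for Rpl3l and Rpl10, with a short tract and none.
Rpl7a, chr2:26910792-26910821, plus strand: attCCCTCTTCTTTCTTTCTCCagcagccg
Rpl27a, chr7:109519180-109519209, plus strand: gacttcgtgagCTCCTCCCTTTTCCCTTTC
Rpl15, chr14:18270972-18271001, minus strand: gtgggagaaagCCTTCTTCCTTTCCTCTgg
Rps18, chr17:33955651-33955680, minus strand: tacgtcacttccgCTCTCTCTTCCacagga
Rpl3l, chr17:24727811-24727840, plus strand: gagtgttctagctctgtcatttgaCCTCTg
Rpl10, chrX:74270801-74270830, plus strand: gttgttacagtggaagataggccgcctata

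CCGGAAG, the core bound by ETS factors such as Gabpa, was present on either strand in the entries of 19 of the 51 members (37.3%) and of 19.2% of the tested genes. GTGGGAA, the core bound by Rbpj, the DNA-binding partner of NICD, was present in 5 of the 51 (9.80%) and in 7.25% of the tested genes. TATAAA was present in 7 (13.7%) and in 9.08%. A match to letters in a window is not a binding site, and other motifs were not searched.

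Related genes were taken from lists made with earlier results of these data known. Of the ribosomal proteins outside the naming rule 4 of 7 were tested and none passed. Rack1, the scaffold of the small subunit head, was the nearest, at 372 to 441 normalized CPM in controls and 332 to 369 in iNICD LA (log2 fold change -0.17, SE 0.058, adjusted p = 0.144). Among 59 ribosome biogenesis genes, which make rRNA and assemble subunits, none passed and the median was -0.17. Of the 59, 54 had a log2 fold change below 0, against 51.3% of all genes. Tcof1, a nucleolar cofactor of rRNA synthesis, had the smallest adjusted p of the 59 at 0.105 (log2 fold change -0.18, SE 0.056).

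None of the 15 RNA polymerase I genes, 11 snoRNA host genes, 22 other translation genes or 32 further translation factors passed. Their medians were -0.046, -0.15, -0.086 and -0.095. The 22 were listed as genes whose mRNA begins with a pyrimidine-rich tract, which was not checked for this list. None of 22 regulators of mTORC1 and MYC passed (median -0.022), and none of 13 p53 targets (median -0.014). In 2 further lists a gene passed. Mrps6, of the mitochondrial small subunit, fell from 58.2 to 79.9 normalized CPM in controls to 48.3 to 60.9 in iNICD LA (log2 fold change -0.42, SE 0.094, adjusted p = 0.0244), alone among 77 mitochondrial ribosomal proteins (median over all -0.040), where 1.34% of all genes tested fell. The call was lost, at adjusted p of 0.0523 to 0.0624, without any 1 of control replicates 1, 3 and 4 and iNICD replicates 1, 2 and 4. Psmb7, a catalytic subunit of the proteasome, rose from 69.6 to 90.004 in controls to 101 to 119 (log2 fold change 0.52, SE 0.070, adjusted p = 0.000808), alone among 38 proteasome subunits, where 2.78% of all genes rose. In males alone Psmb7 did not pass (log2 fold change 0.44, adjusted p = 0.631 by edgeR), and only 8 of all genes did.

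**Figure D5:**
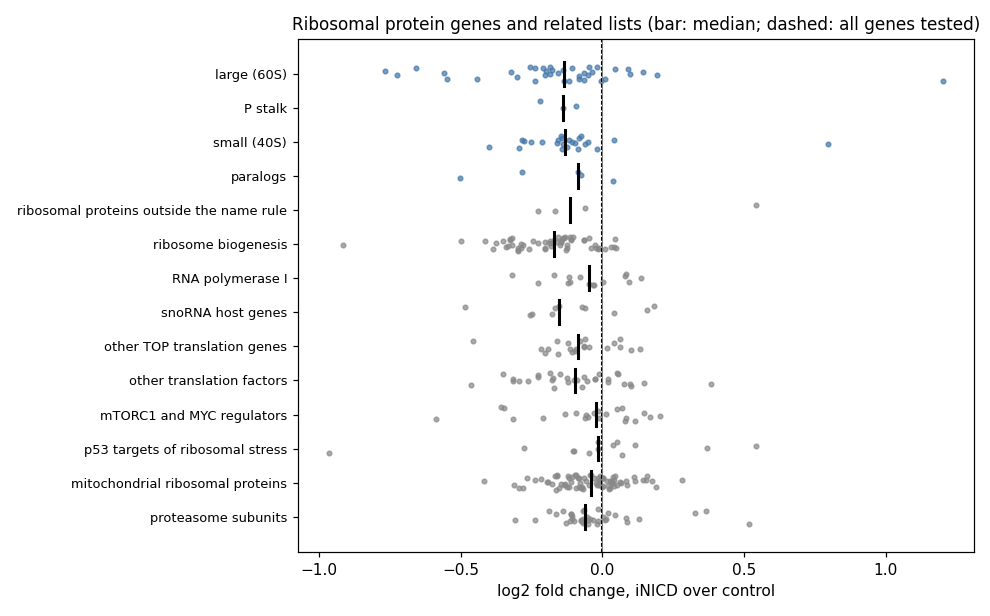
Log2 fold change of iNICD over control for each gene (points) of the members by subunit (blue) and of related lists (grey), with the list median as a bar and the median of all tested genes as a dashed line. The medians of the ribosomal protein lists lie between -0.14 and -0.086, that of ribosome biogenesis at -0.17 and those of the other lists between -0.15 and -0.014.

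Sex was known for every mouse. No member had a sex by genotype interaction after adjustment by edgeR, and none of all 13541 genes did. At an unadjusted p under 0.05 it was 3 members, Rpl34, Rps4l and Rps24, or 4.29% against 3.70% of all genes. With sex as a covariate Rpl8 and Rplp0 passed on the lower side, 2.86% of the members against 1.77% of all genes, and the median over the members was -0.15. In females alone Rpl7a passed, 1.43% against 0.967%, with a median of -0.14. In males alone the median was -0.18, and no gene at all was called lower there.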

How the data were processed

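RNA of 12 LA was depleted of ribosomal RNA and sequenced as single-end stranded reads of 50 bases. The authors deposited raw read counts per gene name with a gene length, without normalization. The submitters' processing notes name cutadapt, STAR 2.4.2a, Subread featureCounts, edgeR and mm10, while the study's supplement gives other versions and describes a pair of routes for these reads. One used STAR and featureCounts and kept reads that aligned to a single place and gene. The other used TopHat2 and HTSeq and removed mitochondrial reads, which the deposited table holds. The use of strand in the counting is not given in the sources used here. A gene whose sequence recurs elsewhere can lose or gain counts by how reads with several matches were handled, and 14 members overlap a protein-coding gene on the other strand. Some genes of the family are not reported here by name.

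Genes above 1 CPM in at least 6 of 12 libraries were fitted with edgeR 4.0.16 (TMM, glmQLFit, glmQLFTest, two-sided) in R 4.3.3, without covariates, and p-values were adjusted over all 13541 genes. DESeq2 1.42.0, other scalings, filters and covariates, and leaving out each library were alternatives. Paralog ratios used counts with a pseudocount of 0.5. Windows of 50 bases came from GENCODE M21 transcripts, and copies were aligned with Biopython 1.88. The fits were tested on simulated data. Total counts of 21432632 to 27182038 per library set the precision, so that 3 counts equal 0.110 to 0.140 CPM, and such limits cover counting error only. Groups came from the sample labels.

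The members and all lists were chosen with earlier results of these data known. Members named were the 5 highest and 5 lowest log2 fold changes, the 3 highest and lowest levels per length and SDs over controls, those nearest the filter, the paralog pairs and a fixed list of well-studied genes, and of other lists up to 3 genes past the threshold or the one with the lowest adjusted p. No member passed, so none was named for passing.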

Additional observations from a re-analysis of the deposited data

Results flagged for a closer look

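In 72 groups of 6 values, covering each named or widely varying member and the sums over members in both genotypes, 12 held a library farther from its nearest neighbour than Dixon's 95% limit of 0.625 of the group's range. Chance flags about 1 in 20 unselected groups. These groups share the 12 libraries and hold members chosen for their spread, so the 12 cannot be read against that rate. Control replicate 5 was the highest control in 7 of the 12. It was at 25.3 normalized CPM for Rpl10a, with the next control at 8.53, at 12.03 for Rpl12 with the next at 5.71, and at 2.53 for Rpl17 with the next at 1.24. It was at 3.28 for Rpl27 (next 1.90), 533 for Rpl4 (next 477), 61.4 for Rpl7l1 (next 47.0) and 432 for Rpl8 (next 371).

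The other 5 lay elsewhere. Control replicate 2 was the lowest control for Rpl5, at 12.7 with the next at 14.4, and for Rps2, at 6.01 with the next at 27.5. iNICD replicate 2 was the highest iNICD library for Rpl3, at 19.3 with the next at 4.67, and the lowest for Rpl7l1, at 29.9 with the next at 40.3. iNICD replicate 6 was the highest for Rpl22, at 107 with the next at 84.7.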

How the results depend on the processing

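No member was called higher under any alternative. The count of members lower, 0 in the main test, was 6 with DESeq2, 1 with upper-quartile normalization (Rplp0, 1.43% of members against 1.53% of all genes called lower), 2 with sex as a covariate, 1 in females alone, and 0 to 1 when single libraries were left out (Rpl12 without control replicate 5, Rpl3 without iNICD replicate 2). The median over members stayed below 0, from -0.158 to -0.088 over the left-out libraries, and was -0.184 in males alone and -0.105 with library totals. Whether replicate numbers pair the mice is not settled: by title numbers, deviations of equally numbered libraries correlated at -0.153 to 0.372, and 3 of 6 correlated best with their own number. A replicate block by title numbers gave 0 members and a median of -0.134, and left 0 mitochondrial ribosomal proteins (Mrps6 at -0.41, adjusted p = 0.0761 by edgeR). Mrps6 was also lost with library totals (adjusted p = 0.0741), in females alone (0.0564) and in males alone (0.775). A block by the numbers in the column names gave 0 members as well, but Mrps6 kept its call there (-0.41, adjusted p = 0.0279 by edgeR). Counts in the lists were, with DESeq2, 3 for the large subunit, 1 for the P stalk, 2 for the small subunit, 1 each for ribosomal proteins outside the rule, translation factors, RNA polymerase I, biogenesis and mTORC1 or MYC, and 2 each for p53 targets and mitochondrial ribosomal proteins. They take both directions together, in which DESeq2 called 1059 of all 13541 genes. Library totals gave 1 translation factor, and taking out a length trend 2 mitochondrial ribosomal proteins. Of all genes these 2 settings called 493 and 542. The causes were not tested.

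Among the named members these signs turned, and members not named were followed only in the count below 0, which was 53 of 70 without control replicate 5 and 56 without iNICD replicate 6. With counts of copies added, Rpl29 was at -0.013 and Rpl21 at -0.26. In females alone Rpl35a was at -0.24 and Rpl5 at -0.11. In males alone Rpl21 was at -0.0915, Rps4x at 0.013, Rpl22 at 0.088, Rps27l at -0.023 and Rps4l at 0.36. Over single left-out libraries Rpl35a ran from -0.078 to 0.55, Rpl22 from -0.12 to 0.00041, Rpl22l1 from -0.13 to 0.00059, Rps4l from -0.19 to 0.044 and Rpl5 from -0.0078 to 0.089. Differences in the paralog log2 ratios ran from 0.16 to 0.80 for Rpl3l, highest without iNICD replicate 2, from -0.19 to -0.084 for Rpl7l1, nearest 0 without the same library, from -0.14 to 0.11 for Rpl22l1, from -0.24 to 0.075 for Rps27l and from -0.15 to 0.10 for Rps4l, and that of Rps27l was 0.0083 on log2 of normalized CPM + 1. Depth limits the members near 1 CPM most.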
